A study of Mus musculus with 6 samples.

Results

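NRF2 is the transcription factor that animal cells use to answer oxidative and electrophilic stress, and the genes described here are Nfe2l2, which encodes it, and 9 genes of the antioxidant defence it controls or works beside. The 10 genes were chosen by name, as the rows whose symbol was Nfe2l2, Nqo1, Hmox1, Gclc, Gclm, Txnrd1, Txn1, Srxn1, Slc7a11 or Gpx4. Each name matched 1 row, so the set is 10 of the 55487 gene rows in each table. The samples were mammary tumours of MMTV-PyMT mice, in which the mouse mammary tumour virus promoter drives the polyoma middle T oncogene in mammary epithelium. There were 3 RNA sequencing libraries of tumours from mice given the LXR agonist DMHCA, a steroidal ligand of the liver X receptors, and 3 of tumours from vehicle mice. The dose was eaten in gel cups, beginning when the mice were 6 weeks old. All mice carried the transgene, so no group is free of the oncogene, and the sources used here do not state sex, strain background, age at collection or any further allele. All 10 epithelial marker genes passed the filter on low counts, and their summed level was 4662 to 5417 CPM, the count of a gene scaled to the library total.

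In unstressed cells KEAP1 holds NRF2 and passes it to the proteasome. Oxidants and electrophiles modify KEAP1, NRF2 accumulates, pairs with a small MAF protein and binds antioxidant response elements near its target genes. Much of this control acts on the protein, so the mRNA of Nfe2l2 is not a measure of NRF2 activity. The targets feed linked systems: import of cystine and synthesis of glutathione, reduction of thioredoxin, and detoxification of quinones and haem. Tumour cells rely on these systems to tolerate the reactive oxygen of rapid growth, and the lipid peroxide reductase GPX4 guards them against ferroptosis, an iron-dependent death.

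Promoter sequence was available from RefSeq (GRCm38.p6) for 8 of the 10 genes, in 13 windows that run from 250 bases before to 50 bases after an annotated start. The windows were searched on both strands for the core of the antioxidant response element, TGACNNNGC, and 4 of the genes held it. These 4 stretches are shown because the core is the sequence that NRF2 is known to bind, although a match of letters is not a bound site. The core is in capitals, on the strand on which it reads as TGACNNNGC.
Gclm, chr3:122245413-122245441, minus strand: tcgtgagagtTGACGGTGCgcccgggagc
Nfe2l2, chr2:75704885-75704913, minus strand: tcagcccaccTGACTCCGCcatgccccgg
Txnrd1, chr10:82859104-82859132, minus strand: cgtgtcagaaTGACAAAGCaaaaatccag
Srxn1, chr2:152105542-152105570, minus strand: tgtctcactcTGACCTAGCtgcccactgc
With the first base of the RefSeq transcript counted as 1, the cores lie at -134 to -126 for Gclm, at -240 to -232 for Nfe2l2, at -92 to -84 for Txnrd1 and at 29 to 37, inside the transcript, for Srxn1. The core is common: 12.4% of all 32851 windows and 14.0% of all 27025 genes in the table hold it. The core can contain the AP-1 site TGACTCA, but none of the 4 matches does. The Srxn1 window holds the AP-1 letters at 2 other places, shown here with the site in capitals because the gene is counted among the oxidant-induced genes.
Srxn1, chr2:152105412-152105438, minus strand: cacagcgtggTGACTCAggccctccga
Srxn1, chr2:152105469-152105495, minus strand: gcccggccgcTGACTCAgggtgaattt
The AP-1 letters occur in 5.20% of all windows. A core with G in place of the C of TGAC was not searched for. Read on its other strand, the Srxn1 stretch at chr2:152105469-152105495 has GC directly after the AP-1 letters. It would match such a core, so the matches listed above may not be complete. A direct repeat of the kind LXR binds, 2 copies of AGGTCA on either strand with 4 bases between them, was found in 0 of the 13 windows of these genes and in 5 windows of the whole table, which says only that these letters are not in these windows.

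The 10 genes ran from very abundant transcripts to a scarce transporter. Levels between genes are compared in TPM, a unit that corrects for transcript length and library size. Gpx4 averaged 444 ± 59.3 TPM over the 6 libraries (SD) and Txn1 376 ± 55.0 TPM, and both lay at or above the 98.3th percentile of detected genes in every library. Gpx4 was above Txn1 in 4 of 6 libraries, so their order is not clear of the spread. Gclm (55.8 TPM) and Txnrd1 (54.8 TPM) came next, each above the other in 3 libraries. Nfe2l2 (38.4 TPM), Nqo1 (36.9 TPM) and Hmox1 (36.5 TPM) followed with overlapping ranges. Srxn1 (10.5 TPM) and Gclc (8.85 TPM) also overlapped, while both were above Slc7a11 in all 6 libraries. The cystine transporter Slc7a11 stood at 0.14 to 0.47 TPM, between the 19.6th and the 32.5th percentile of detected genes.

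None of the 10 genes passed the test for a difference between agonist and vehicle. All 10 passed the filter on low counts, 6 log2 fold changes were positive and 4 negative, and every 95% interval included 0. The median log2 fold change of the 10 was 0.03 and that of all 17396 tested genes was -0.00486. Called genes at an adjusted p under 0.05 by edgeR numbered 0 of 10, against 0% of all genes. At an unadjusted p under 0.05 there were also 0 of 10, against 3.09% of all genes (538, of which 125 or 0.719% were higher with agonist and 413 or 2.37% lower). With upper-quartile factors the split was 182 higher and 331 lower, and with limma-trend on TPM 238 and 137. Without agonist replicate 3 the 538 became 315, and without vehicle replicate 2 they became 2442. DESeq2 called 5 genes among all, with 772 at an unadjusted p under 0.05, limma-voom 0 with 1211, and limma-trend on TPM 0 with 375. None of the 10 was below 0.05 by any of these tools. Nothing in the labels states that each tumour is from its own mouse. The titles of a group share 1 code that differs between the groups, so what the code stands for and the treatment cannot be told apart. P-values here measure the spread between these libraries, which may be technical. Between pairs of libraries of the same group, 61.2 to 73.8% of 17465 genes differed by more than counting error. In whole tumour pieces, fewer cells of a type and less RNA per cell cannot be told apart.

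**Figure D1:**
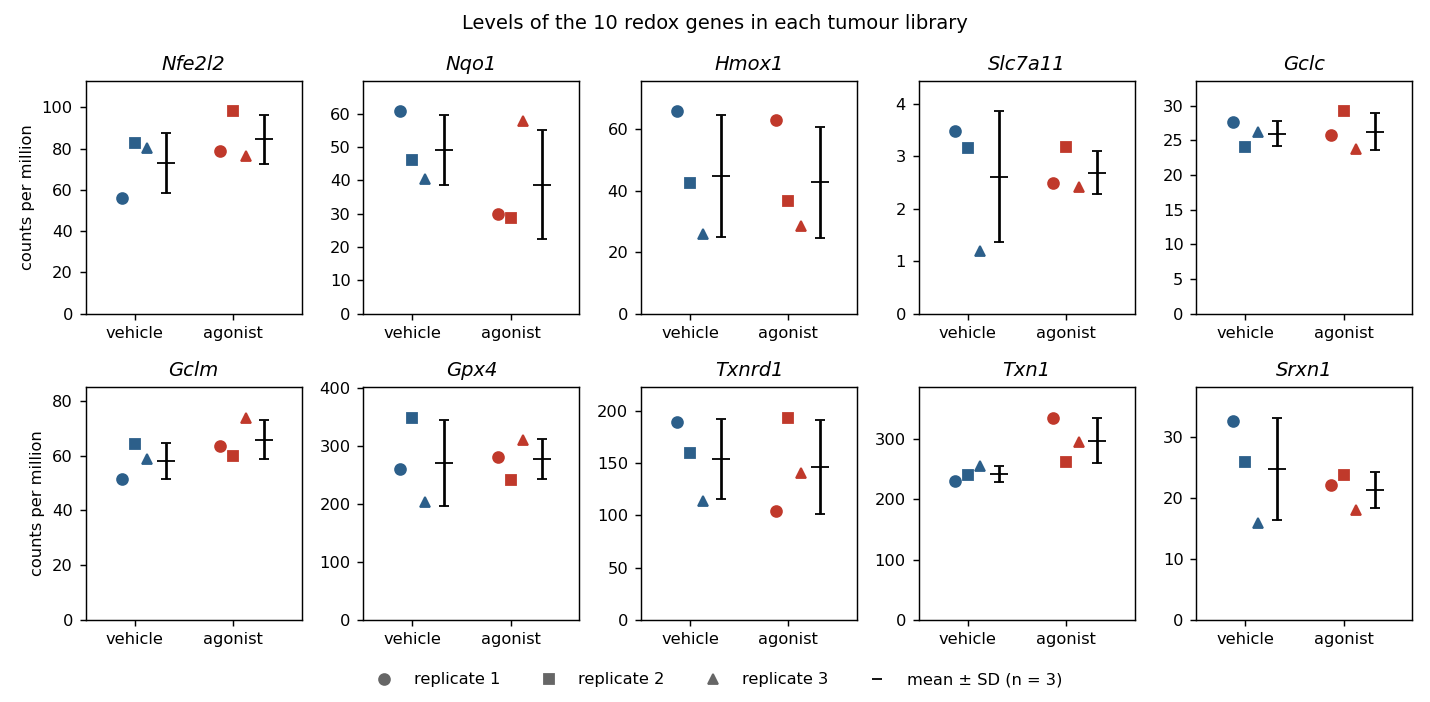
Level of each gene in CPM (y axis, starting at 0) in the 3 vehicle and 3 agonist libraries, with symbols for the replicate numbers and bars for mean ± SD (n = 3). The groups overlap for every gene except Txn1, whose lowest agonist library (262 CPM) is above its highest vehicle library (256 CPM).

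The regulator Nfe2l2 (ENSMUSG00000015839, chr2:75675513-75704641, minus strand) was at 78.8, 98.1 and 76.5 CPM in agonist replicates 1 to 3. In the vehicle libraries it was at 56.2, 82.7 and 80.3 CPM. The groups overlapped, and vehicle replicate 1 stood below the other 5 libraries. The log2 fold change of agonist over vehicle was 0.21 ± 0.19 (SE, 95% interval -0.24 to 0.66, edgeR unadjusted p = 0.313). Without vehicle replicate 1 it was 0.0509.

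Nfe2l2 was also set against Keap1, the gene of its inhibitor, inside each library, where scaling between libraries plays no part. The TPM ratio of Nfe2l2 to Keap1 was 1.57, 1.89 and 1.60 in the agonist libraries. In the vehicle libraries it was 0.766, 1.49 and 1.49. The groups did not overlap, but the lower end was vehicle replicate 1, and the other vehicle libraries lay just under the agonist range. The mean difference was 0.49 on the log2 scale, with a two-sided exact permutation p of 0.1, the smallest that 3 libraries against 3 can give. Adjusted over the 5 ratios examined it was 0.5, and without vehicle replicate 1 the difference was 0.17. Keap1 itself was at 64.1, 67.2 and 59.6 CPM with agonist and at 95.5, 71.4 and 68.2 CPM with vehicle. Vehicle replicate 1 thus had both the lowest Nfe2l2 and the highest Keap1 of the 6 libraries. Keap1 had a log2 fold change of -0.30 ± 0.17 (edgeR adjusted p = 0.99).

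**Figure D2:**
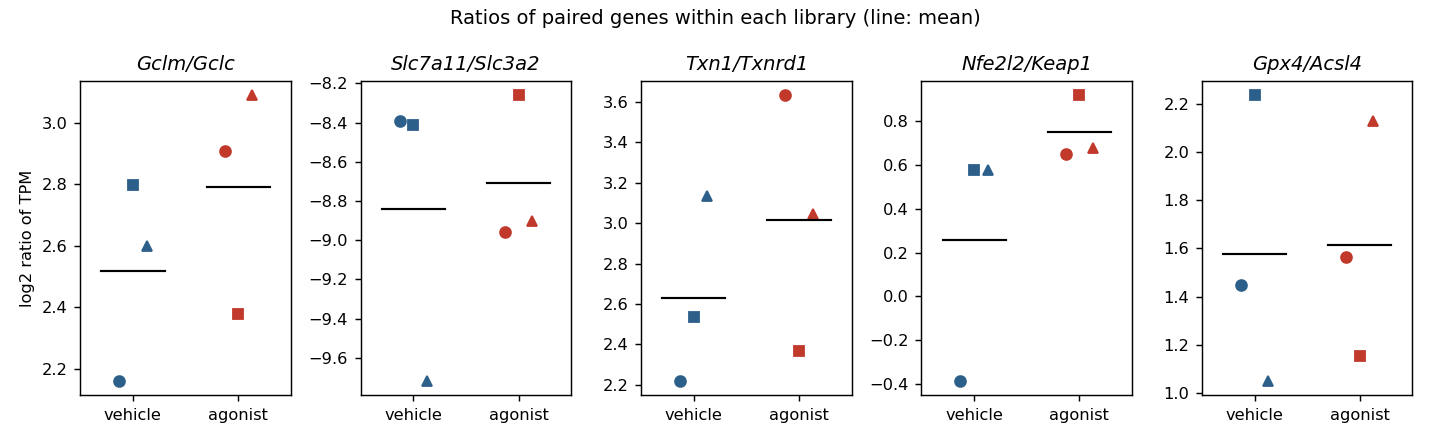
Log2 ratio of TPM of 5 gene pairs (y axis, not starting at 0) in each vehicle and agonist library, with the group mean as a line and symbols for replicates 1 (circle), 2 (square) and 3 (triangle). Of the 5, the groups separate for Nfe2l2/Keap1, where vehicle replicate 1 lies far below the other libraries.

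Among the detoxification enzymes, Nqo1, the quinone reductase that is the textbook NRF2 target (ENSMUSG00000003849, chr8:107388225-107403206, minus strand), had the largest log2 fold change in size of the 10 genes. It was at 29.8, 28.7 and 57.6 CPM with agonist. With vehicle it was at 60.7, 46.2 and 40.5 CPM. Agonist replicates 1 and 2 were below all vehicle libraries, while agonist replicate 3 was close to the highest vehicle library. Means were 38.7 ± 16.4 and 49.1 ± 10.4 CPM (SD, n = 3), a log2 fold change of -0.34 ± 0.30 (95% interval -1.04 to 0.36, edgeR unadjusted p = 0.289). Without agonist replicate 3 it was -0.75 with an unadjusted p of 0.0118 and an adjusted p of 1 (edgeR), and of the 16 alternatives run this was the 1 in which any of the 10 genes was below an unadjusted 0.05.

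Hmox1, which encodes the haem-degrading oxygenase and is strongly induced in macrophages that take up haem (ENSMUSG00000005413, chr8:75093621-75100589, plus strand), was at 63.1, 36.8 and 28.4 CPM with agonist. It was at 65.8, 42.5 and 26.1 CPM with vehicle. The groups covered nearly the same range, and the spread within a group exceeded the difference between them. Its log2 fold change was -0.07 ± 0.41 (-1.05 to 0.91) and ran from -0.46 without agonist replicate 1 to 0.32 without vehicle replicate 1. All 12 macrophage markers were detected, and their summed level, scaled to the library total, was 545 to 647 CPM with agonist and 189 to 971 CPM with vehicle. The macrophage sum was lowest in vehicle replicate 3, where Hmox1 was also lowest, and highest in vehicle replicate 2, where Hmox1 was in the middle of its range. The part of macrophages in the Hmox1 values was not tested.

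Glutathione synthesis begins with cystine, which enters through the exchanger whose light chain is Slc7a11 (ENSMUSG00000027737, chr3:49892526-50443614, minus strand). It had 91.7, 129.5 and 101.1 expected counts in the agonist libraries and 153, 119 and 47.8 in the vehicle libraries, which gave 2.49, 3.17 and 2.41 CPM against 3.49, 3.17 and 1.19 CPM. Both ends of the range were vehicle libraries. With a log2 fold change of 0.04 ± 0.46 (-1.02 to 1.11), a 2.15-fold higher or a 0.491-fold level with agonist both lie in the interval. The value turned with the libraries left out, from -0.30 without vehicle replicate 3 to 0.30 without vehicle replicate 1. Its heavy chain partner Slc3a2, which also serves other amino acid transporters, was far more abundant, at 109 to 158 TPM. The TPM ratio of Slc7a11 to Slc3a2 lay between 0.00119 and 0.00326, with overlapping groups (exact permutation p = 0.8).

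Glutamate cysteine ligase, the rate-limiting enzyme of glutathione synthesis, has a catalytic subunit, Gclc, and a modifier subunit, Gclm. Gclc (ENSMUSG00000032350, chr9:77754535-77794485, plus strand) was at 25.8, 29.2 and 23.8 CPM with agonist and 27.6, 24.1 and 26.2 CPM with vehicle. Both ends of its range were agonist libraries. Its log2 fold change was 0.02 ± 0.15, and the interval of -0.34 to 0.37 corresponds to a level between 0.791 and 1.29 times that of vehicle. Gclm (ENSMUSG00000028124, chr3:122245557-122270732, plus strand) was at 63.7, 60.0 and 74.0 CPM with agonist and at 51.3, 64.2 and 58.8 CPM with vehicle. Agonist replicate 3 was the highest and vehicle replicate 1 the lowest library, and the groups overlapped. The log2 fold change of Gclm was 0.18 ± 0.15 (-0.17 to 0.53, unadjusted p = 0.266), with 0.0896 without agonist replicate 3 and 0.099 without vehicle replicate 1. On log2(TPM + 1) limma-trend gave 0.33 (unadjusted p = 0.0904, adjusted p = 0.99).

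The transcript of the modifier outnumbered that of the catalytic subunit in every library, by 7.50, 5.21 and 8.51 times in TPM with agonist and by 4.47, 6.96 and 6.05 times with vehicle. The groups overlapped (log2 difference 0.27, exact permutation p = 0.4). Gclm counts carry an uncertainty that Gclc counts do not. An antisense gene, Gm17494, overlaps Gclm and had 250 to 476 expected counts against 2252 to 3098 for Gclm, and the strand setting of the counting is not given in the sources used here. With the counts of both summed, an alternative chosen after seeing the data, the log2 fold change of Gclm was 0.13.

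Gpx4, whose selenoprotein uses glutathione to reduce lipid peroxides in membranes (ENSMUSG00000075706, chr10:80047166-80056439, plus strand), was at 282, 242 and 311 CPM with agonist. With vehicle it was at 259.9, 349.5 and 203 CPM. The agonist libraries lay inside the vehicle range. Its log2 fold change was 0.04 ± 0.22 (-0.48 to 0.55) and ran from -0.13 without vehicle replicate 3 to 0.26 without vehicle replicate 2. A processed copy, Gpx4-ps2, was assigned 574 to 991 expected counts against 8179 to 13128 for Gpx4, and reads can be split between such copies. With both summed the log2 fold change was 0.0391. Acsl4, which loads membranes with the fatty acids that ferroptosis consumes, was set against Gpx4, and the TPM ratio of Gpx4 to Acsl4 was 2.23 to 4.37 with agonist and 2.07 to 4.70 with vehicle (exact permutation p = 0.9).

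In the thioredoxin branch, Txn1, the small dithiol protein that passes electrons to peroxiredoxins (ENSMUSG00000028367, chr4:57943373-57956411, minus strand), was the 1 gene of the 10 whose groups did not overlap. It was at 336, 262 and 295 CPM with agonist and at 229.9, 241 and 256 CPM with vehicle. The margin between the lowest agonist and the highest vehicle library was small beside the spread of the agonist libraries. Over all genes 3.02% were higher in all 3 agonist libraries. Means were 298 ± 37.2 and 242 ± 13.1 CPM (SD, n = 3), a log2 fold change of 0.30 ± 0.16 (-0.06 to 0.66, edgeR unadjusted p = 0.0928, adjusted p = 0.99). It stayed between 0.20 and 0.38 in the fits that leave out 1 library. Agonist replicate 1, the highest Txn1 library, also had the highest sum of erythroid markers, 1887 CPM. The other 5 had 440 to 1206 CPM and did not keep this order. Agonist replicate 3, with the next highest Txn1, had the lowest erythroid sum (440 CPM). Vehicle replicate 2, with 241 CPM of Txn1, had an erythroid sum of 1206 CPM. The part of erythroid cells in the Txn1 values was not tested. The Txn1 groups also did not overlap in TPM, with DESeq2 size factors and with upper-quartile factors.

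Txnrd1, the selenoprotein reductase that keeps thioredoxin reduced (ENSMUSG00000020250, chr10:82833951-82897712, plus strand), was at 104, 194 and 141 CPM with agonist. It was at 189.5, 159.6 and 114 CPM with vehicle. The groups covered nearly the same range, with agonist replicate 1 lowest and agonist replicate 2 highest. Its log2 fold change was -0.08 ± 0.27 (-0.71 to 0.56) and ran from -0.34 without agonist replicate 2 to 0.12 without agonist replicate 1. Srxn1, sulfiredoxin, which rescues overoxidised peroxiredoxins (ENSMUSG00000032802, chr2:152105516-152111376, plus strand), was at 22.2, 23.8 and 18.1 CPM with agonist and at 32.6, 25.9 and 15.8 CPM with vehicle. Both ends of the Srxn1 range were vehicle libraries. Its log2 fold change was -0.21 ± 0.27 (-0.84 to 0.41), and 0.0362 without vehicle replicate 1. The ratio of Txn1 to Txnrd1 in TPM was 12.4, 5.17 and 8.27 with agonist and 4.66, 5.81 and 8.77 with vehicle (exact permutation p = 0.5).

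**Figure D3:**
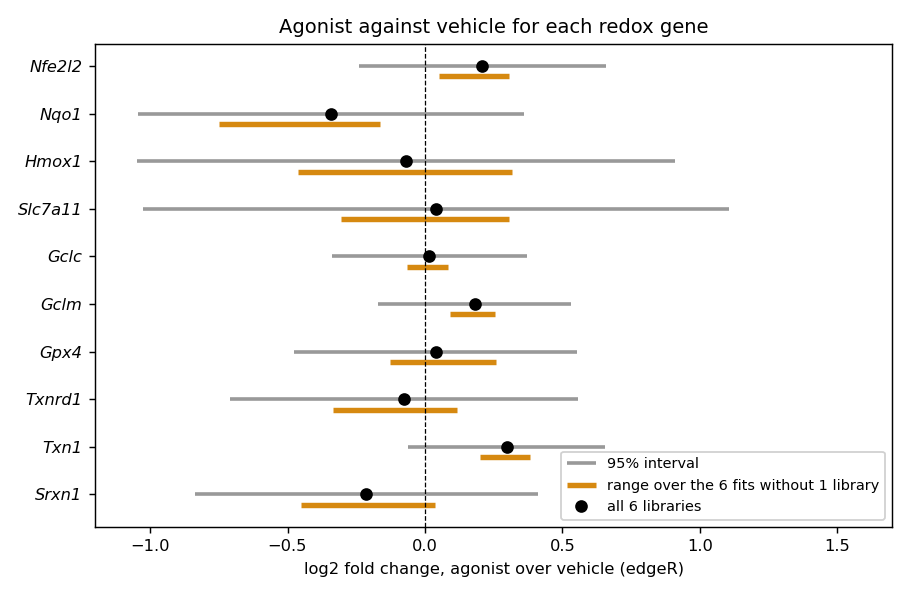
Log2 fold change of agonist over vehicle from edgeR (x axis) for each gene, with the 95% interval in grey and the range over the 6 fits that each leave out 1 library in orange. Every interval includes 0, and the orange ranges of Hmox1, Slc7a11, Gclc, Gpx4, Txnrd1 and Srxn1 cross 0.

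Variation between libraries of 1 group differed widely among the 10 genes. The pooled SD within groups, in log2 CPM, had a median of 0.35 over the 10 genes and of 0.32 over all tested genes. Hmox1 had an SD of 0.63, higher than 94.1% of genes within 1 log2 CPM of its level. Nqo1 (0.45) stood at the 89.3th percentile of such genes, Txnrd1 (0.41) at the 87.4th and Srxn1 (0.40) at the 80.3th. The lower end on this scale held Gclc (0.13, 12.7th percentile), Txn1 (0.14, 14.5th) and Gclm (0.16, 27.0th). In TPM over all 6 libraries the order at this end was another, with a coefficient of variation of 13.4% for Gpx4, 14.6% for Txn1 and 14.9% for Gclc. Slc7a11 had an SD of 0.61, at the 57.3th percentile of genes as scarce as it is.

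Slc7a11, Srxn1 and Txnrd1 were above their own 6-library mean in the same 3 libraries, agonist replicate 2 and vehicle replicates 1 and 2, and below it in the other 3. This grouping was noticed after their values were seen, and in agonist replicate 1 the deviations of Slc7a11 and Srxn1 were near 0 (-0.013 and -0.017). In vehicle replicate 1 the deviations were 0.46, 0.54 and 0.38 on the log2 scale, and in vehicle replicate 3 they were -1.04, -0.50 and -0.36. Nfe2l2 did not follow them, since vehicle replicate 1 had its lowest value (-0.47). The ATF4 list holds 12 genes, Atf4 itself and targets of the amino acid stress programme to which Slc7a11 also belongs. Atf4 alone was at 202 to 217 CPM. The summed level of the list was 857, 903 and 767 CPM in agonist replicates 1 to 3. In vehicle replicates 1 to 3 the sum was 871, 828.4 and 666 CPM. Its order did not follow the same grouping, since agonist replicate 1 was above vehicle replicate 2. Vehicle replicate 3 was the lowest library for 4 of the 10 genes and the highest for 0. It also had the lowest sums of fibroblast markers (564 CPM against 2364 to 6417 CPM) and of macrophage markers. Its sum of epithelial markers, 5243 CPM, lay inside the range of 4662 to 5417 CPM. The part of tissue make-up in these deviations was not tested.

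**Figure D4:**
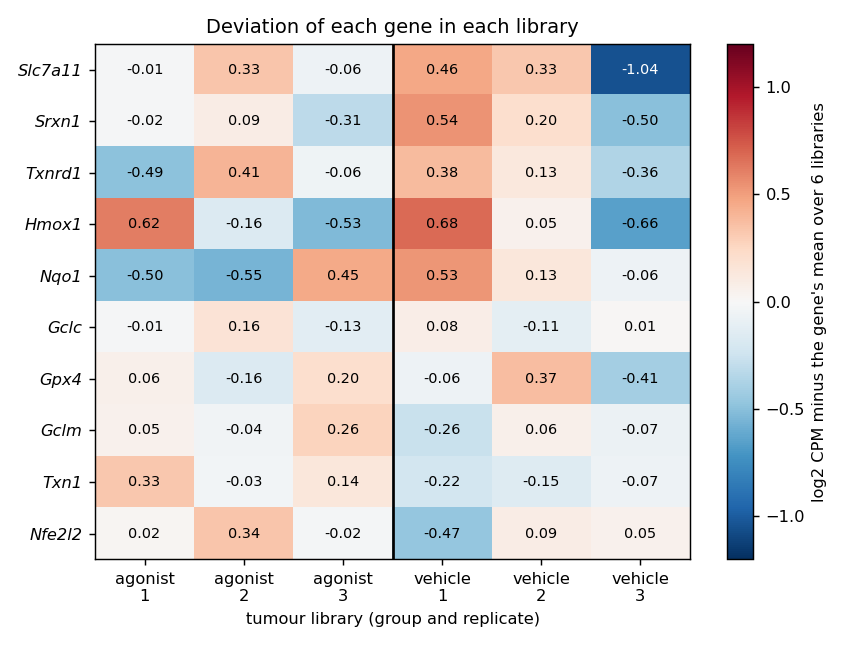
Deviation of each gene (rows) in each library (columns) from the gene's 6-library mean (log2 CPM, prior count 2), printed in the cells and coloured from blue (below) to red (above). Vehicle replicate 1 is the highest library for 4 genes and the lowest for 3, and vehicle replicate 3 is the lowest for 4. The agonist and vehicle columns overlap in every row except that of Txn1.

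The tables also hold, for each gene and library, the mean transcript length weighted by transcript abundance, which moves when a tumour uses other transcripts of a gene. It was constant for Nqo1, Gclc and Txn1 and varied for the other 7 genes. Txnrd1 had 3286, 3158 and 3269.6 bases with agonist and 3141, 3201 and 3256 bases with vehicle. The groups overlapped (exact permutation p = 0.5). The 3 libraries with the shortest Txnrd1 transcripts, vehicle replicate 1, agonist replicate 2 and vehicle replicate 2, were the 3 with the highest Txnrd1 CPM, an order noticed after the values were seen. In TPM, which itself divides by this length, agonist replicate 3 (49.7) was just above vehicle replicate 2 (49.4). The annotated transcript Txnrd1-201 of 3325 bases starts at position 82859179 of chromosome 10, beside the antioxidant response core shown above. Another, Txnrd1-205 of 3622 bases, starts upstream at 82833951. The shorter Txnrd1-208, of 2297 bases, starts at 82859207, close to Txnrd1-201. The weighted length therefore does not tell which start was used. The 200 bases from -250 to -51 of the downstream promoter, chr10:82858956-82859155 on the plus strand, are shown with the core in capitals on that strand.
Txnrd1 promoter: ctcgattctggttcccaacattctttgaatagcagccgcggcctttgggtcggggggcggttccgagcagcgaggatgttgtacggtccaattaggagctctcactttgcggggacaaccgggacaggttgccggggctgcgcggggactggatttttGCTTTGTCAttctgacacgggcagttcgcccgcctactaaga
Gclm varied by 305 bases, from 1302 in agonist replicate 1 to 1607 in vehicle replicate 1, and Srxn1 by 378 bases, from 2434 in vehicle replicate 1 to its full 2812 in 3 libraries. Neither separated the groups (exact permutation p = 0.4 for each), and over the 7 genes that varied the smallest adjusted p was 0.875.

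Around the 10 genes, 113 tested genes of 9 redox lists had 0 called at an adjusted p under 0.05 by edgeR. At an unadjusted p under 0.05 there were 3 (2.65%, against 3.09% of all genes), 2 higher and 1 lower. Of the 113, 67 were positive and 46 negative, and the groups did not overlap for 14 (12.4%, against 7.24% of all genes). NRF2 control genes were negative in 8 of 11 cases (median -0.16), and 3 were lower in all agonist libraries, against 4.22% of all genes. Mafk, a small MAF partner of NRF2, was at 28.3, 29.3 and 25.7 CPM with agonist and 37.1, 36.8 and 38.8 CPM with vehicle. Its log2 fold change was -0.44 ± 0.13 (unadjusted p = 0.0111, edgeR adjusted p = 0.99). Nfe2l1, the related factor of proteasome genes, was at -0.37 ± 0.17 and Mafg at -0.38 ± 0.19.

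Glutathione peroxidases and transferases were positive in 19 of 24 cases (median 0.26), where 49.3% of all genes were positive. Of the cell type markers, 9 of 10 for fibroblasts (median 0.25) and 8 of 8 for endothelium (median 0.34) were positive too. Macrophage markers were positive in 8 of 12 cases (median 0.08) and lymphocyte markers in 4 of 7 (median 0.28). Fewer were positive for epithelium (3 of 10, median -0.10), adipocytes (2 of 7, median -0.40) and erythroid cells (2 of 6, median -0.21). The fibroblast sums of the vehicle libraries ran from 564 to 6417 CPM. The part of these cell types in the transferase list was not tested. Reads of near-identical transferases can be shared between family members, so these counts are uncertain. Gstt1, a theta class transferase, was at 23.7, 25.8 and 33.6 CPM with agonist and 16.8, 18.7 and 14.7 CPM with vehicle (log2 fold change 0.73 ± 0.19, unadjusted p = 0.00578, adjusted p = 0.99). Mgst1, the microsomal transferase, was at 0.70 ± 0.32 and Gstm1 at -0.35 ± 0.17. Thioredoxins and peroxiredoxins were positive in 10 of 13 cases (median 0.17), with the thioredoxin inhibitor gene Txnip at 0.28 ± 0.15, Prdx3 at 0.25 ± 0.16 and Prdx1 at 0.27 ± 0.19. Genes of glutathione supply and recycling were positive in 8 of 14 cases (median 0.05). Among them Ggct was at 0.64 ± 0.26 (edgeR unadjusted p = 0.041), Glrx at 0.30 ± 0.14 and Oplah at -0.33 ± 0.16.

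The remaining lists had medians between -0.07 and 0.10. Other NRF2 targets were positive in 9 of 15 cases, with Slc48a1 at -0.23 ± 0.12, Pir at -1.10 ± 0.63 and Osgin1 at -0.52 ± 0.42. NADPH supply genes were positive in 5 of 8 cases, with Idh2 at 0.23 ± 0.23, Tkt at 0.10 ± 0.15 and Pgd at -0.13 ± 0.20. Superoxide dismutases and catalase were positive in 3 of 4 cases, with Sod1 at 0.19 ± 0.13, Sod2 at 0.17 ± 0.14 and Sod3 at -0.25 ± 0.72. On the lipid and iron side of ferroptosis 6 of 13 were positive, with Slc40a1 at 0.48 ± 0.31, Por at -0.29 ± 0.20 and Aifm2 at -0.27 ± 0.20. The ATF4 list, which includes Atf4 itself, was positive in 4 of 12 cases. Ddit3 was at -0.47 ± 0.22, Atf3 at -0.69 ± 0.35 and Phgdh at 0.32 ± 0.21. None of these genes passed an adjusted p of 0.05.

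**Figure D5:**
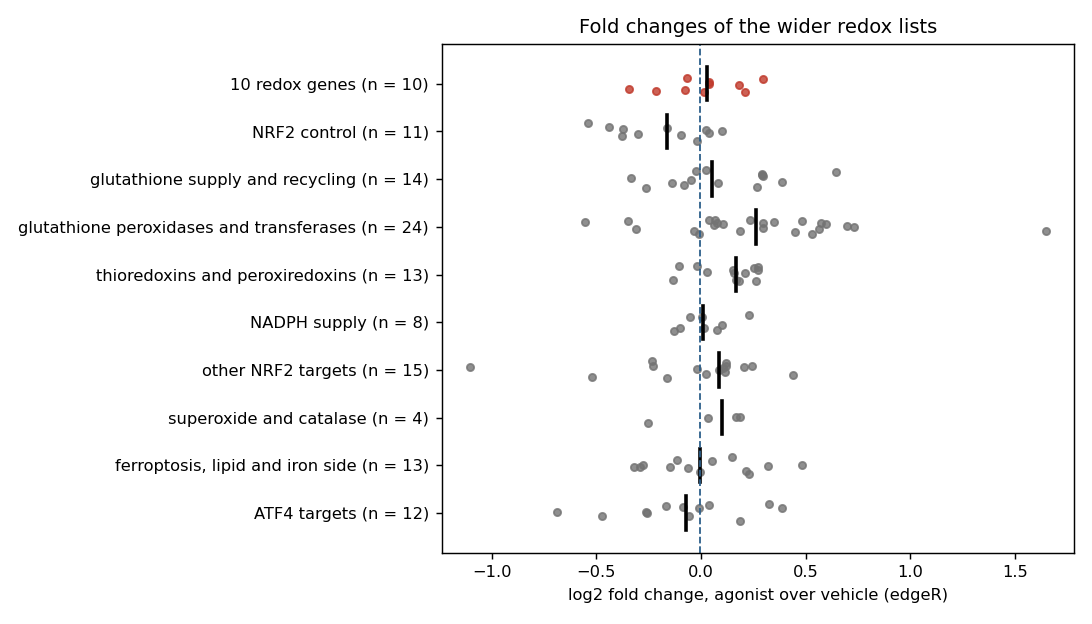
Log2 fold change of agonist over vehicle from edgeR (x axis) for the 10 redox genes (red) and the tested genes of 9 wider lists (grey), with the median of each list as a black bar and the median of all genes as a dashed line. The 10 genes lie within -0.34 and 0.30, and the glutathione peroxidases and transferases have the highest median, 0.26.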

How the data were processed

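The authors deposited 1 RSEM gene table per library. It holds expected counts, which are estimated reads per gene, and TPM, which the authors' RSEM run computed after division by transcript length, per the file headers. Per the submitters' processing notes, FastQC 0.11.9, cutadapt 3.5, STAR 2.7.9a and RSEM 1.3.1 were used with GRCm38. DESeq2 1.36.0 and R 4.1 are also listed there. Annotation release and strand setting: not given in the sources used here.

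The deposited FPKM values were not used. Libraries held 36577451 to 42595799 expected counts. Counts were rounded and tested with edgeR 4.0.16 (R 4.3.3): TMM, filterByExpr (minimum count 10, total 15), robust quasi-likelihood F test of agonist against vehicle without covariates, and Benjamini-Hochberg adjustment over 17396 genes. Run on simulated data, this test called 62 of 100 genes changed 4-fold and 4 of 100 genes changed 2-fold. False calls numbered 6. So 0 calls alone do not show that changes of these sizes are absent. The intervals of the 10 members, not adjusted for the number of genes, run from 0.484 (Hmox1) to 2.15 (Slc7a11) times the vehicle level. A 4-fold change lies outside each of them. A 2-fold lower level lies inside those of Nqo1, Hmox1 and Slc7a11, and a 2-fold higher level inside that of Slc7a11 only. CPM are TMM-scaled, and sums over lists are scaled to library totals. Standard errors are the log2 fold change over the square root of F, and SDs cover 3 libraries. Ratios and lengths were compared by two-sided exact permutation. Alternatives used DESeq2 1.42.0, limma 3.58.1 (limma-voom, and limma-trend on log2(TPM + 1) or log2(TPM + 0.1)), other scalings and filters, a replicate block and each library left out. Gene positions are from GENCODE M21 on GRCm38 and promoters from RefSeq (GRCm38.p6). The named genes are the 10 members, the genes of the ratios and the 3 genes of each pathway list with the smallest unadjusted p. The members and lists were chosen with earlier results of these data known. No library was left out of the main test.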

Additional observations from a re-analysis of the deposited data

How the results depend on the processing

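Across 16 alternative settings the count of members called was 0, and of 160 member values 147 kept their direction and 13 turned. Among all genes the count called was 0 except with the DESeq2 Wald test, which called 5. The cause was not tested. The members' median log2 fold change of 0.03 lay between -0.191 (without vehicle replicate 3) and 0.0860 (without agonist replicate 3) with libraries left out, and between 0.0253 and 0.0684 in the other settings. Leaving out 1 library at a time placed the log2 fold change of Nfe2l2 between 0.0509 and 0.31, Nqo1 between -0.75 and -0.16, Hmox1 between -0.46 and 0.32, Gclc between -0.0672 and 0.0824, Gclm between 0.0896 and 0.26, Txnrd1 between -0.34 and 0.12, Txn1 between 0.20 and 0.38, Srxn1 between -0.45 and 0.0362, Slc7a11 between -0.30 and 0.30, and Gpx4 between -0.13 and 0.26. Gclc also turned with limma-voom (-0.0540). In the settings that kept all libraries Gclm lay between 0.13 and 0.33, Hmox1 between -0.25 and -0.0141, Slc7a11 between 0.0212 and 0.17 and Gpx4 between 0.0371 and 0.18. The 5 ratios kept their direction in TPM with 0.1 added and in expected counts. Leave-one-out ranges of their log2 differences were 0.0942 to 0.48 for Gclm/Gclc, -0.30 to 0.36 for Slc7a11/Slc3a2, 0.0775 to 0.71 for Txn1/Txnrd1, 0.17 to 0.65 for Nfe2l2/Keap1 and -0.23 to 0.36 for Gpx4/Acsl4. Whether replicate numbers pair the libraries is not settled by these values. Same-numbered libraries had deviations that correlated weakly, at 0.172, 0.038 and 0.063. Of the 6 libraries, 5 correlated best with their own number. With the replicate block 0 genes were called, 488 were at an unadjusted p under 0.05 and the members' median was 0.0400. At a floor of 3 counts (0.0704 to 0.0820 CPM, counting error only) every member was above the floor in every library. Slc7a11, with 47.8 to 153 expected counts, had the least depth behind its values. With 3 libraries against 3, the intervals of the 10 genes together span 0.484 to 2.15 times the vehicle level. The lower end is that of Hmox1 and the upper that of Slc7a11. Other intervals were narrower, such as 0.791 to 1.29 for Gclc and 0.719 to 1.47 for Gpx4.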
